A study of Arabidopsis thaliana with 6 samples.

Results

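The 34 genes described here are the 29 Aux/IAA genes of Arabidopsis thaliana and 5 genes of the auxin receptor family, TIR1, AFB1, AFB2, AFB3 and AFB5. They were taken by family membership and not by their values, and all 34 were among the 31276 genes of the deposited table. The tissue came from Col-0, the common laboratory accession, with no mutation or transgene named in any group. Day 7 libraries came from pieces of hypocotyl, the embryonic stem, that were cut from 1-week-old seedlings and had spent 7 days on callus-inducing medium, on which cut tissue forms a mass of dividing cells. Day 0 libraries came from pieces taken just after cutting. Each group had 3 biological replicates, whose values are given below in the order of replicates 1, 2 and 3, and the hormones of the medium are not given in the sources used here. The values were TPM, transcript abundance per length scaled to a fixed total per library, so sequencing depth is unknown and no counting error can be given.

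The labels call the tissue of all 6 libraries callus, day 0 included, whereas the design text places day 0 at excision. Marker genes were set beside these descriptions. Genes of the founder cells of lateral roots and callus (LBD16, LBD18, LBD29 and GATA23) summed to 10.9 to 32.4 TPM at day 7 and to 289 to 398 TPM at day 0, so they were abundant in the tissue described as freshly cut. Photosynthesis genes summed to 17.4 to 30.6 TPM at day 7 and 132 to 624 TPM at day 0 over 6 genes, and epidermal genes to 19.2 to 73.8 TPM and 296 to 614 TPM over 4 genes. Root stem cell niche genes (PLT1, PLT2, WOX5 and SCR) summed to 81.5 to 206 TPM at day 7 and 29.5 to 36.3 TPM at day 0, and vascular genes to 94.0 to 199 TPM at day 7 and 84.0 to 100.2 TPM at day 0 over 5 genes. Members of both lists differed, since PLT1, PLT2 and the vascular gene ATHB8 rose, APL and SUC2 of the phloem fell, and WOX5, SCR, IRX3 and XCP1 did not pass (limma-trend). No marker was at 0 in all libraries of either group. The libraries also differed in the part of 1000000 TPM held by nuclear protein-coding genes, 37.6% to 80.95% at day 7 and 59.5% to 86.4% at day 0, with replicate 2 highest in both groups. The listed ribosomal RNA genes held 8.44% to 38.9% at day 7, against 4.19% to 18.03% at day 0, with replicate 2 lowest in both groups. In bulk tissue, fewer cells of a type and less RNA per cell cannot be told apart, and the part of these shifts in cell markers in the results below was not tested.

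Aux/IAA proteins are repressors of the auxin response. They bind auxin response factors (ARFs) on DNA and recruit TOPLESS-type co-repressors, and auxin joins their degron to a TIR1/AFB receptor, the F-box subunit of an SCF ubiquitin ligase, after which the repressor is destroyed. Many Aux/IAA genes are themselves switched on quickly by auxin, so the family is used as a readout of the response as well as being its brake. In the hypocotyl and root the pathway is known for its part in bending growth, in lateral root initiation and in callus formation.

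The degron divides the family, so its coding DNA is shown first. In the longest RefSeq coding sequence (TAIR10.1) of each gene, the 4 codons GGN, TGG, CCN and CCN, in frame and in that order with none between on the coding strand, encode the core of the degron that the receptors bind. They were found in 23 of the 29 Aux/IAA genes and not in 6, which were IAA20, IAA30, IAA31, IAA32, IAA33 and IAA34. The stretches below belong to genes that fell strongly (IAA5, IAA19, IAA3, IAA7) and to the 3 most abundant Aux/IAA genes at day 7 (IAA2, IAA9, IAA4). Capitals mark the matched letters, each line is on the coding strand, and the coordinates are TAIR10.1.
IAA5, chr1:5366278-5366307, minus strand: agtcaagttgtgGGTTGGCCACCGgtttgt
IAA19, chr3:5264304-5264333, plus strand: agccaggtggtgGGGTGGCCACCGgtttgt
IAA3, chr1:1129022-1129051, minus strand: gctcagattgttGGATGGCCACCAgttaga
IAA4, chr5:17550737-17550766, plus strand: gctcagattgttGGATGGCCACCAgttaga
IAA7, chr3:8195565-8195594, plus strand: gcacaagtggtgGGATGGCCACCTgtgagg
IAA2, chr3:8181390-8181419, minus strand: actcaaatcgttGGTTGGCCACCAgtgaga
IAA9, chr5:26255101-26255130, plus strand: gcacaaattgtcGGTTGGCCTCCAgtgaga
IAA3 and IAA4 carried the same 30 bases there, and the ratio of their transcripts in each group is given below.

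At day 7 the Aux/IAA transcript pool was smaller, whereas the receptor pool overlapped between the groups as deposited. The 29 Aux/IAA genes summed to 1509, 3240 and 2049 TPM in the day 7 libraries, against 4614, 7681 and 5103 TPM in the day 0 libraries. Every day 7 library lay below every day 0 library, and the mean was 2266 ± 886 TPM against 5799 ± 1648 TPM (SD, n = 3 each). The 5 receptor genes summed to 171 ± 71.0 TPM at day 7, against 127 ± 37.6 TPM at day 0 (SD, n = 3 each). Rescaled to 1000000 TPM over nuclear protein-coding genes, the Aux/IAA sum was 3938 to 4010 at day 7 and 7171 to 8886 at day 0, and the receptor sum was 292 to 308 at day 7 and 157 to 194 at day 0, without overlap in either. On that scale the median log2 difference of all tested genes was itself 0.42. There 49.6% of them were called higher at day 7 and 21.0% lower (limma-trend). How far the receptor sum rose beyond that shift of all genes was not tested.

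The ratio of the pools does not depend on how a library is scaled. There were 7.35, 7.69 and 7.41 receptor TPM per 100 Aux/IAA TPM in the day 7 libraries, against 2.03, 2.18 and 2.34 in the day 0 libraries. The means were 7.48 ± 0.179 and 2.18 ± 0.159 (SD, n = 3 each), 3.43-fold higher at day 7, with replicates far closer to each other than the groups. As a background, TPM per summed Aux/IAA TPM was higher in every day 7 than in every day 0 library for 79.2% of the 18608 tested genes.

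**Figure D1:**
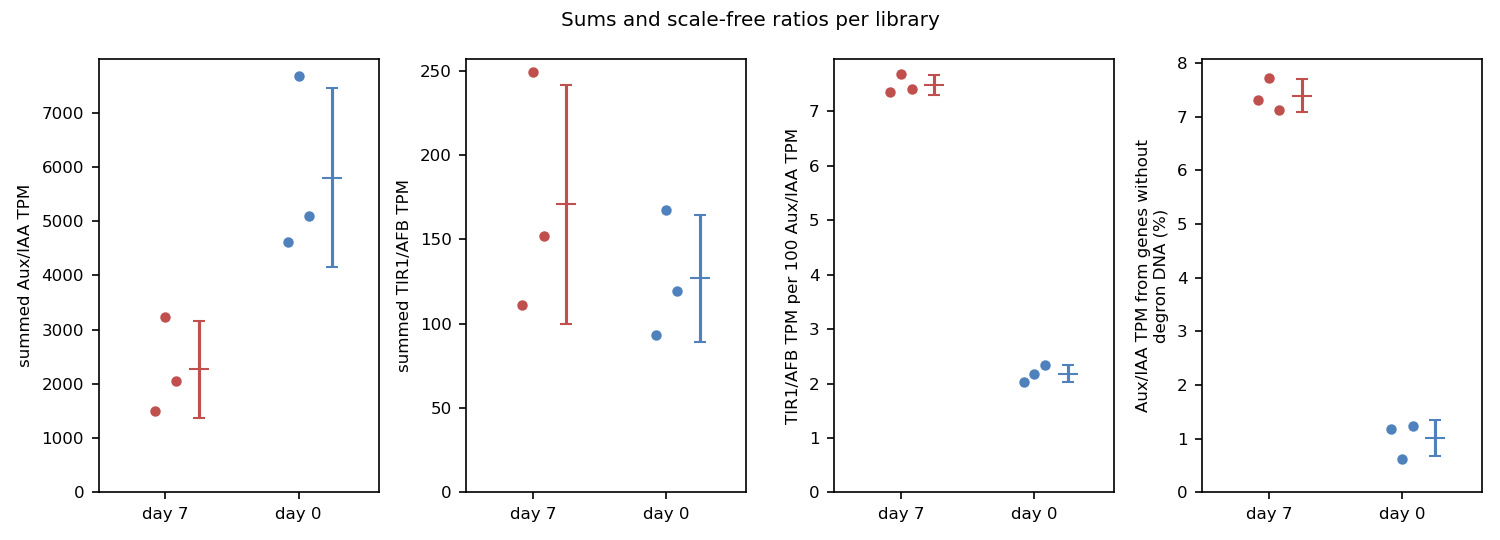
Each point is a library and the bar is the mean ± SD of 3. From left to right the panels give the summed Aux/IAA TPM, the summed TIR1/AFB TPM, TIR1/AFB TPM per 100 Aux/IAA TPM, and the percentage of Aux/IAA TPM from genes without the degron codons, with all axes from 0. The ratio and the percentage lie between 7.13 and 7.73 at day 7, whereas the ratio is 2.03 to 2.34 and the percentage 0.622 to 1.24 at day 0.

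Of the 29 Aux/IAA genes 25 reached the level needed for a test, which was 1 TPM in 3 or more libraries. Of these 10 fell, 3 rose and 12 did not pass at an adjusted p below 0.05 (limma-trend, all tested genes in the adjustment). Over all tested genes 29.6% passed, with 16.2% lower and 13.4% higher. The libraries of the groups did not overlap for 14 of the 25, with 11 lower and 3 higher, where 38.7% of all tested genes did not, 19.5% lower and 19.3% higher. The falls stood beside the falls of all 4 founder cell genes, all 6 photosynthesis genes and all 4 epidermal genes. The median difference of the tested Aux/IAA genes was -0.77 on the log2(TPM + 1) scale, against 0.05 for all tested genes. The 10 that fell were IAA1, IAA3, IAA5, IAA6, IAA7, IAA14, IAA17, IAA18, IAA19 and IAA29. Of these, IAA6 reached the level for a test only through its day 0 values. Without day 7 replicate 2, 16 fell and 3 rose, where 26.7% and 12.1% of all tested genes did. The median difference of all tested genes was then -0.22. After median-of-ratios scaling, which sets the median gene of each library level, 18 fell and the same 3 rose, where 33.9% and 31.0% of all tested genes did (64.9% together). With quantile normalization 14 fell and 4 rose, where 28.4% and 34.8% did (63.2%). After rescaling over nuclear protein-coding genes 13 fell and 6 rose, where 21.0% and 49.6% did (70.6%), and without the 50 most abundant genes 14 fell and 6 rose, where 22.1% and 47.4% did (69.5%). The 10 falls and 3 rises named here were called under all 4 of these scalings, although the median difference of all genes moved to 0.42 on the nuclear protein-coding scale and 0.38 without the 50 most abundant genes.

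**Figure D2:**
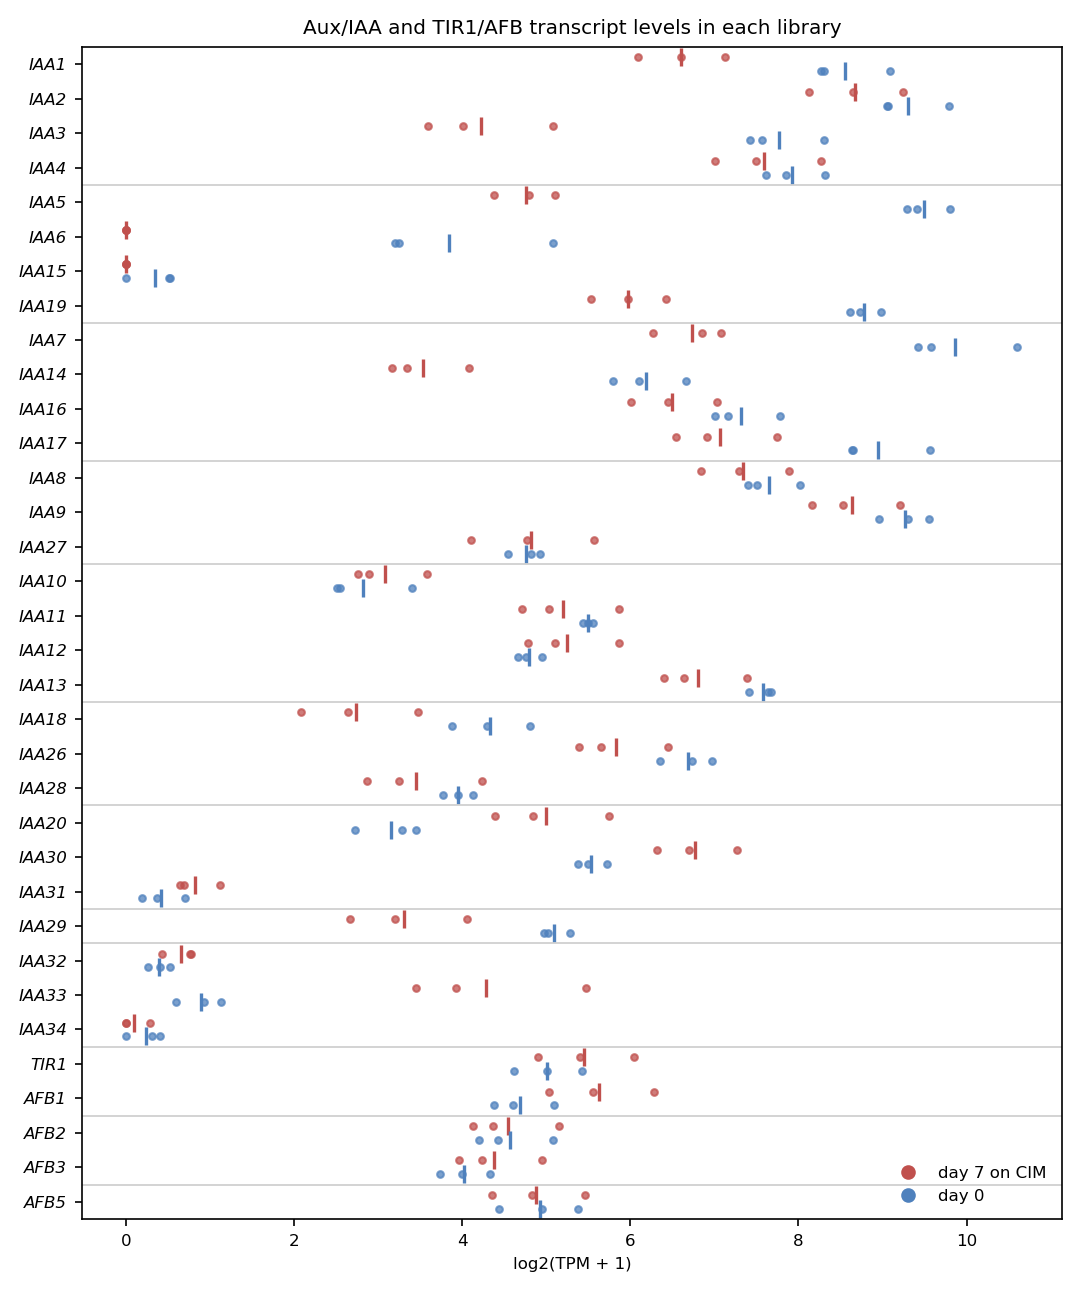
Each point is a library, day 7 on callus-inducing medium above day 0 in each row, and the vertical mark is the mean of 3. The horizontal axis is log2(TPM + 1), and grey lines separate the clades. IAA5, IAA3 and IAA7 lie far lower at day 7, IAA33 and IAA20 lie higher, and the 5 receptor genes overlap.

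Members were also counted by the degron codons, beside the 13.4% of all tested genes that were higher and the 16.2% that were lower as deposited. Of the 22 tested genes with the codons 10 fell, 12 did not pass and 0 rose by limma-trend, with 0 higher at an unadjusted p below 0.05 and after median-of-ratios scaling. IAA12 rose with quantile normalization, and IAA10, IAA12 and IAA27 rose on the nuclear protein-coding scale and without the 50 most abundant genes. Of the 6 genes without them 3 were tested, IAA20, IAA30 and IAA33, and these 3 rose. The other 3 were too low to test, and IAA33 reached the level for a test through the group in which it was high, so no difference between genes with and without the codons is drawn from these counts. The genes without the codons held 7.32%, 7.73% and 7.13% of the Aux/IAA TPM in the day 7 libraries, against 1.19%, 0.622% and 1.24% in the day 0 libraries. The mean share was 7.39% ± 0.309 at day 7, against 1.02% ± 0.342 at day 0 (SD, n = 3 each), 7.28-fold higher at day 7. Most of it was IAA30, which alone held 4.99% at day 7 and 0.832% at day 0. The summed TPM of the genes without the codons was 169 ± 72.8 at day 7, against 55.2 ± 7.7 at day 0 (SD, n = 3 each), 3.06-fold higher. The share also reflects the mean Aux/IAA sum, which was 2.56-fold lower at day 7. TPM per summed Aux/IAA TPM was higher in every day 7 than in every day 0 library for 79.2% of all tested genes.

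IAA33 (AT5G57420), which lacks the degron and is known in the Arabidopsis root for a part in the stem cells of the tip, had 9.90, 43.4 and 14.2 TPM in the day 7 libraries, against 1.19, 0.51 and 0.90 TPM in the day 0 libraries. It was near absent at day 0 and clearly present in each day 7 library, with replicate 2 the highest. Its log2 difference was 3.40 ± 0.42 (SE, limma adjusted p = 2.22e-14), and it entered the test through its 3 day 7 values, with day 0 replicate 1 also above 1 TPM. IAA20 (AT2G46990) had 19.9, 52.4 and 27.7 TPM at day 7, against 8.75, 5.62 and 9.94 TPM at day 0, a 4.12-fold higher mean and a log2 change of 1.83 ± 0.44 (SE, limma adjusted p = 2.50e-04). Its nearest relative IAA30 (AT3G62100) had 78.7, 153 and 103 TPM at day 7, against 44.2, 40.4 and 51.7 TPM at day 0, with a log2 change of 1.23 ± 0.43 (SE, limma adjusted p = 0.0177). Neither gene's groups overlapped. IAA20 and IAA30 are known in the Arabidopsis root as targets of ARF5 that limit xylem formation. IAA30 held 4.99% ± 0.244 of the Aux/IAA TPM at day 7, against 0.832% ± 0.266 at day 0 (SD, n = 3 each), and it had rank 7 of the family at day 7, against rank 15 at day 0. The IAA30 call was lost without day 7 replicate 3 or without any single day 0 library, and IAA20 and IAA30 lost theirs when no filter on low values was used. The other 3 genes without the codons stayed too low to be tested. IAA31 (AT3G17600) reached at most 1.17 TPM in any library, and IAA32 and IAA34, known from the apical hook of seedlings, at most 0.70 and 0.32 TPM.

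In the clade of IAA5, IAA6, IAA15 and IAA19 all 3 tested genes fell, where 16.2% of all tested genes did (limma-trend). IAA6 was tested only through its day 0 values, so nothing about the clade is drawn from this count. These are early auxin-induced genes, and IAA19 (MSG2) and IAA6 (SHY1) are known for control of hypocotyl growth and bending. IAA5 (AT1G15580) had 19.8, 33.4 and 26.6 TPM in the day 7 libraries, against 624, 890 and 677 TPM in the day 0 libraries. It was the second most abundant Aux/IAA transcript at day 0 and ranked 17 at day 7, with a log2 change of -4.74 ± 0.43 (SE, limma adjusted p = 2.10e-26). Its share of the Aux/IAA TPM was 1.21% ± 0.1597 at day 7, against 12.8% ± 1.05 at day 0 (SD, n = 3 each).

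IAA6 (AT1G52830) was listed at 0 in each day 7 library and had 8.52, 32.9 and 8.17 TPM in the day 0 libraries. It entered the test only through its day 0 values. Its log2 difference was -3.84 ± 0.38 (SE, limma adjusted p = 3.04e-22), a size set by the pseudocount, since it was -7.06 with a pseudocount of 0.1. IAA19 (AT3G15540) had 45.3, 84.7 and 61.8 TPM at day 7, against 392, 503 and 423 TPM at day 0, a 6.87-fold lower mean at day 7 and a log2 change of -2.80 ± 0.43 (SE, limma adjusted p = 1.05e-09). The groups did not overlap for IAA5 and IAA19, nor for IAA6, where 19.5% of all tested genes were lower without overlap. IAA15 (AT1G80390) never exceeded 0.44 TPM and was not tested.

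**Figure D3:**
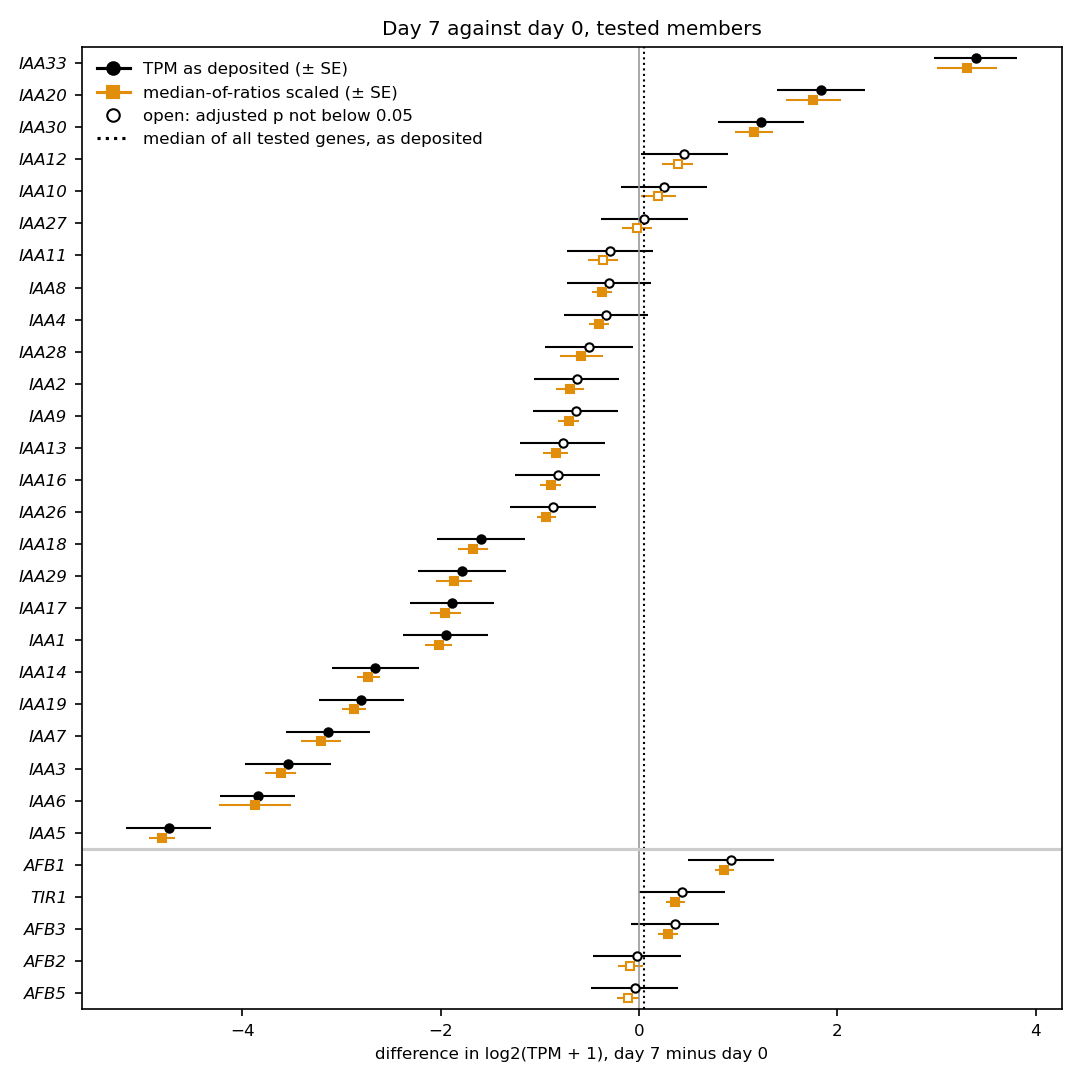
Differences in log2(TPM + 1), day 7 minus day 0, for the 30 tested members, Aux/IAA genes above and receptor genes below the grey line, with black circles for TPM as deposited and orange squares after median-of-ratios scaling. Bars are SE, filled symbols passed (adjusted p below 0.05), and the dotted line is the median of all tested genes as deposited (0.05). IAA33, IAA20 and IAA30 are the only Aux/IAA genes with filled symbols right of 0, and the SEs shrink after scaling.

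The family holds 3 back-to-back pairs on the chromosomes, each with 1 gene of the IAA1 to IAA4 clade and 1 of the IAA7, IAA14, IAA16 and IAA17 clade. In the RefSeq annotation (TAIR10.1) IAA3 and IAA17 are 6388 bases apart on chromosome 1, IAA2 and IAA7 are 12510 bases apart on chromosome 3, and IAA1 and IAA14 are 10732 bases apart on chromosome 4. The genes of each pair are transcribed away from each other with 0 protein-coding genes between them. For each pair the ratio of the genes within a library did not overlap between the groups, and IAA14 stood at 0.0950 to 0.119 times IAA1 at day 7 and 0.178 to 0.214 times IAA1 at day 0. This was not particular to neighbours. IAA9 stood at 3.24 to 4.41 times IAA7 at day 7 and 0.483 to 0.825 times IAA7 at day 0. IAA18 stood at 0.0794 to 0.118 and 0.170 to 0.215 times IAA26. Both are pairs on different chromosomes. The share of all gene pairs without overlap was not computed.

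IAA7 (AT3G23050, AXR2) was the most abundant Aux/IAA transcript at day 0, with 76.2, 134 and 114 TPM in the day 7 libraries, against 683, 1557 and 762 TPM in the day 0 libraries. Its log2 difference was -3.13 ± 0.43 (SE, limma adjusted p = 4.48e-12). Its neighbour IAA2 (AT3G23030), whose promoter is widely used as an auxin reporter, had 278, 606 and 400.2 TPM at day 7, against 534, 885 and 529 TPM at day 0, with overlap between the groups, and did not pass (log2 difference -0.63 ± 0.43, SE, limma adjusted p = 0.281). It passed as lower on the median-of-ratios scale and stood at 0.10, without passing, with quantile normalization. Within a library, IAA7 stood at 0.221 to 0.286 times IAA2 at day 7 and at 1.28 to 1.76 times IAA2 at day 0. IAA2 had the highest mean share of the family at day 7, although IAA9 was higher in day 7 replicate 1, and held 18.9% ± 0.571 of the Aux/IAA TPM there, against 11.15% ± 0.676 at day 0 (SD, n = 3 each).

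IAA3 (AT1G04240, SHY2), known in the Arabidopsis root as the point where cytokinin restrains the auxin response, had 11.1, 32.7 and 15.1 TPM in the day 7 libraries, against 171, 314 and 188 TPM in the day 0 libraries. The mean was 11.4-fold lower at day 7, and the log2 difference was -3.54 ± 0.43 (SE, limma adjusted p = 9.73e-15). Its neighbour IAA17 (AT1G04250, AXR3) also fell, to 141.5 ± 63.3 TPM at day 7, against 517 ± 206.5 TPM at day 0 (SD, n = 3 each, log2 difference -1.88 ± 0.43, SE, limma adjusted p = 7.93e-05). IAA3 was 0.120 to 0.154 times IAA17 at day 7 and 0.416 to 0.471 times IAA17 at day 0. In the last pair IAA14 (AT4G14550, SLR), the repressor of ARF7 and ARF19 in lateral root initiation, fell to 11.01 ± 4.29 TPM, against 74.2 ± 23.7 TPM at day 0 (SD, n = 3 each, log2 difference -2.66 ± 0.44, SE, limma adjusted p = 1.94e-08). IAA1 (AT4G14560, AXR5) fell to 101 ± 35.9 TPM, against 389 ± 134 TPM at day 0 (SD, n = 3 each, log2 difference -1.95 ± 0.43, SE, limma adjusted p = 4.23e-05).

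IAA4 (AT5G43700), which carries the same degron stretch as IAA3, did not pass as deposited. It had 127, 307 and 180 TPM in the day 7 libraries, against 194, 316 and 229 TPM in the day 0 libraries, which overlapped, with a log2 change of -0.33 ± 0.43 (SE, limma adjusted p = 0.608) that passed as lower on the median-of-ratios scale and was positive, without passing, in the 3 other scalings. IAA3 was 0.0838 to 0.107 times IAA4 at day 7 and 0.82 to 0.993 times IAA4 at day 0, so transcripts of near-equal level at day 0 stood far apart at day 7. IAA16 (AT3G04730) had 93.2 ± 34.01 TPM at day 7, against 163 ± 48.8 TPM at day 0 (SD, n = 3 each) and did not pass as deposited (limma adjusted p = 0.141), although it fell after median-of-ratios scaling.

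The long Aux/IAA proteins are IAA8, IAA9 and IAA27, of which IAA9 is known for leaf and fruit development from tomato. All 3 genes had overlapping groups, where 38.7% of all tested genes did not overlap. As deposited 0 of the 3 passed, where 29.6% of all tested genes did (limma-trend). IAA9 (AT5G65670) had 284, 591 and 370 TPM in the day 7 libraries, against 497, 752 and 629 TPM in the day 0 libraries, and did not pass (log2 difference -0.64 ± 0.43, SE, limma adjusted p = 0.271). IAA8 (AT2G22670) had 169 ± 62.3 TPM at day 7 and 203 ± 49.3 TPM at day 0, and IAA27 (AT4G29080) 29.6 ± 15.3 TPM and 26.2 ± 3.62 TPM (SD, n = 3 each), with overlap in both. Within the pool IAA9 and IAA8 held 18.4% ± 0.405 and 7.48% ± 0.1695 of the Aux/IAA TPM at day 7, against 10.96% ± 1.28 and 3.52% ± 0.137 at day 0 (SD, n = 3 each). IAA8 passed as lower on the median-of-ratios scale but was positive, without passing, in the 3 other scalings. IAA9 passed as lower on the median-of-ratios scale, without the 50 most abundant genes (log2 difference -0.29) and without day 7 replicate 2 (-0.93). Without passing, IAA9 stood at -0.24 on the nuclear protein-coding scale and at 0.10 with quantile normalization.

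IAA10, IAA11, IAA12 and IAA13 form the clade of IAA12 (BDL), the repressor of ARF5 in the embryonic root. As deposited 0 of the 4 passed, where 29.6% of all tested genes did (limma-trend, and 0 of the 4 at an unadjusted p below 0.05). IAA12 (AT1G04550) had 26.6, 57.1 and 33.5 TPM in the day 7 libraries, against 24.4, 26.2 and 29.8 TPM in the day 0 libraries, with a log2 change of 0.46 ± 0.44 (SE, limma adjusted p = 0.470). Its calls under other scalings are given above. IAA13 (AT2G33310) had 83.1, 166 and 98.3 TPM at day 7, against 169, 204 and 199 TPM at day 0. Its groups did not overlap, yet the difference of -0.77 ± 0.43 did not pass as deposited (SE, limma adjusted p = 0.172). It was called lower under all 4 other scalings. IAA11 and IAA10 had 38.0 ± 16.9 and 7.70 ± 2.82 TPM at day 7, against 44.1 ± 1.96 and 6.36 ± 2.76 TPM at day 0 (SD, n = 3 each).

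The remaining members are IAA18, IAA26, IAA28 and IAA29. IAA18 (AT1G51950), known from embryonic and lateral root formation, had 3.24, 10.1 and 5.21 TPM in the day 7 libraries, against 13.7, 26.9 and 18.6 TPM in the day 0 libraries, without overlap (log2 difference -1.59 ± 0.44, SE, limma adjusted p = 1.93e-03). IAA29 (AT4G32280), a gene induced by shade in seedlings, had 5.31, 15.6 and 8.21 TPM at day 7, against 30.5, 31.3 and 37.9 TPM at day 0, also without overlap (log2 difference -1.79 ± 0.44, SE, limma adjusted p = 3.69e-04). IAA26 (AT3G16500) had 58.6 ± 24.1 TPM at day 7 and 104 ± 22.2 TPM at day 0, and IAA28 (AT5G25890), a repressor known from lateral root founder cells, 10.8 ± 6.11 TPM and 14.5 ± 1.87 TPM (SD, n = 3 each). Neither passed as deposited, and both fell after median-of-ratios scaling. IAA17, IAA18 and IAA29 lost their calls when no filter on low values was used.

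The pool therefore had a different make-up in the groups. By mean share IAA2, IAA9, IAA4 and IAA8 led it at day 7, and IAA7, IAA5, IAA2 and IAA9 at day 0. In every library the 4 highest genes were enough to hold at least 50% of it. The 3 highest held 45.7% to 46.4% at day 7, against 39.9% to 43.4% at day 0, without overlap. A gene's share of the pool was higher in every day 7 library for 17 of the 29 genes and lower in every one for 8. The 17 included IAA31 and IAA32, which were too low to be tested. As a background over tested genes only, TPM per summed Aux/IAA TPM was higher for 79.2% and lower for 9.90%. The 8 were IAA1, IAA3, IAA5, IAA6, IAA7, IAA14, IAA17 and IAA19.

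**Figure D4:**
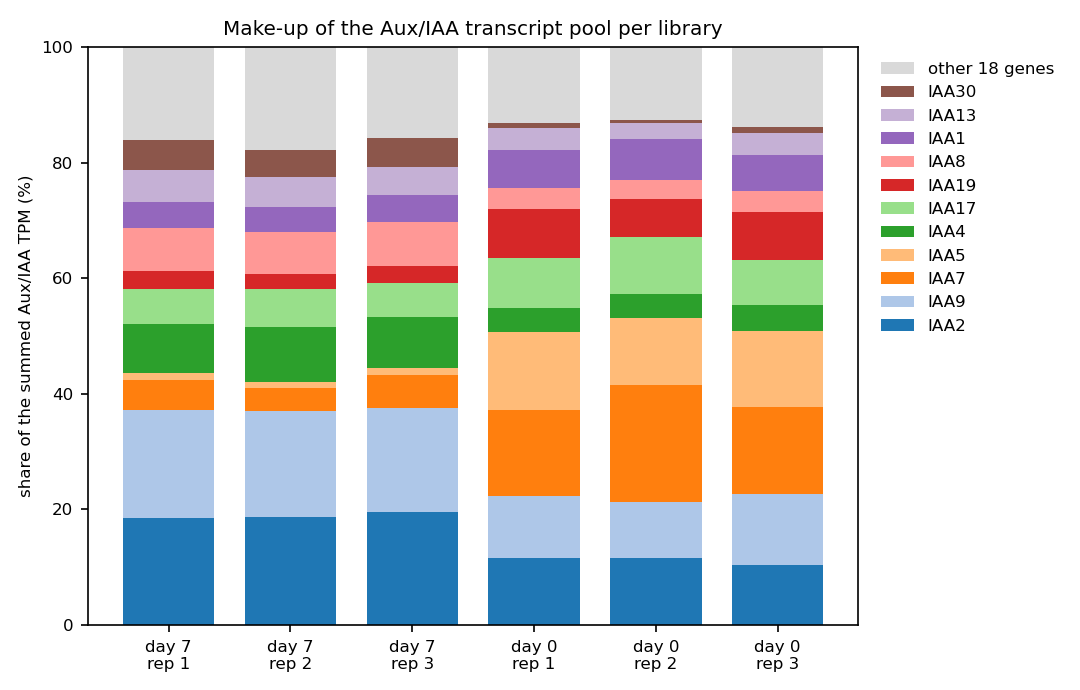
Stacked bars give the share (%) of the summed Aux/IAA TPM held by the 11 members with the largest shares and by the other 18 genes, for each library (rep, replicate). The IAA7 block is 4.13% to 5.58% of the pool at day 7 and 14.8% to 20.3% at day 0, the IAA5 block 1.03% to 1.31% and 11.6% to 13.5%, and the IAA30 block is visible mainly at day 7.

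No receptor gene passed as deposited, but AFB1 had rank 1 among them at day 7, against rank 3 at day 0. AFB1 (AT4G03190), known in Arabidopsis roots for the fast, non-transcriptional auxin response, had 31.8, 76.6 and 45.9 TPM in the day 7 libraries, against 19.8, 33.2 and 23.2 TPM in the day 0 libraries. The mean was 2.02-fold higher at day 7, but the groups overlapped as deposited and it did not pass (log2 difference 0.93 ± 0.44, SE, limma adjusted p = 0.0951). TIR1 (AT3G62980), the founding receptor, had 28.8, 65.1 and 41.1 TPM at day 7, against 23.4, 41.8 and 31.1 TPM at day 0, without passing (log2 difference 0.43 ± 0.44, SE, limma adjusted p = 0.496). For the family 0 of 5 passed in either direction as deposited by limma-trend, where 29.6% of all tested genes did. At an unadjusted p below 0.05, 1 of the 5, AFB1, was higher.

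AFB3 (AT1G12820), known for root responses to nitrate, had 20.7 ± 7.98 TPM at day 7, against 15.4 ± 3.46 TPM at day 0 (SD, n = 3 each). AFB2 (AT3G26810) had 23.6 ± 9.72 TPM at day 7 and 23.6 ± 8.18 TPM at day 0 (SD, n = 3 each), and AFB5 (AT5G49980), known as the receptor of the synthetic auxin picloram, 19.4 to 43.1 TPM at day 7 and 20.6 to 40.6 TPM at day 0. On the median-of-ratios scale AFB1, TIR1 and AFB3 rose, by 0.86 ± 0.10, 0.37 ± 0.09 and 0.30 ± 0.10 on the log2 scale (SE, limma adjusted p = 1.42e-04, 9.29e-03 and 0.0327), where 31.0% of all tested genes rose. On that scale AFB2 and AFB5 stood at -0.09 ± 0.12 and -0.11 ± 0.11 (SE, limma adjusted p = 0.558 and 0.411). On the nuclear protein-coding scale all 5 receptors rose, where 49.6% of all tested genes did (limma-trend). The median of all tested genes was itself 0.42 higher there. AFB1, TIR1, AFB3, AFB2 and AFB5 lay 0.91, 0.41, 0.34, -0.05 and -0.07 from that median. AFB1 also passed when day 7 replicate 1 was left out.

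The order of the receptors was the same in every library of a group and differed between the groups. At day 7 it was AFB1, TIR1, AFB5, AFB2 and AFB3 from high to low in all 3 libraries, and at day 0 it was TIR1, AFB5, AFB1, AFB2 and AFB3 in all 3. As a share of the summed receptor TPM, AFB1 held 28.6%, 30.7% and 30.2% in the day 7 libraries, against 21.2%, 19.8% and 19.4% in the day 0 libraries. AFB5 held 17.6% ± 0.357 at day 7 and 23.7% ± 1.52 at day 0, and AFB2 13.9% ± 0.936 and 18.4% ± 1.24 (SD, n = 3 each), both lower at day 7 without overlap. The share of all tested genes without overlap in TPM per summed receptor TPM was not computed. TIR1, with 26.4% ± 0.614 and 25.3% ± 0.586, and AFB3, with 12.3% ± 0.737 and 12.3% ± 0.864 (SD, n = 3 each), overlapped.

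The 14 listed SCF subunits and regulators gave 0 calls in either direction as deposited (limma-trend, where 29.6% of all tested genes passed), with 1, the cullin exchange factor CAND1, higher at an unadjusted p below 0.05. The 2 with the highest mean TPM, the SKP1-type adaptor ASK1 and the cullin CUL1, were at 214 ± 91.7 and 120 ± 46.2 TPM at day 7, against 234 ± 30.4 and 85.4 ± 29.7 TPM at day 0 (SD, n = 3 each). On the median-of-ratios scale 3 of the 14 were called higher (CUL1, CAND1 and CSN5B) and 6 lower (RBX1, RCE1, RUB1, SGT1B, CSN5A and IBR5), where 31.0% and 33.9% of all tested genes were. Of the 6, SGT1B and CSN5A were positive without passing on the nuclear protein-coding scale. AFB4, a receptor gene outside the 34, had 11.6 ± 4.87 TPM at day 7, against 7.41 ± 2.47 TPM at day 0 (SD, n = 3 each) and did not pass (limma adjusted p = 0.371).

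Among co-repressors and activating ARFs, the partners of the Aux/IAA proteins, 3 of 10 genes rose and 0 fell as deposited, where 13.4% and 16.2% of all tested genes did (limma-trend, with 0 lower also at an unadjusted p below 0.05 and after median-of-ratios scaling). TPL (AT1G15750), the TOPLESS co-repressor, had 52.5, 128 and 70.1 TPM in the day 7 libraries, against 21.8, 53.2 and 31.7 TPM in the day 0 libraries, and was the only 1 of 5 co-repressor genes to rise as deposited (log2 difference 1.20 ± 0.43, SE, limma adjusted p = 0.0225). The other 4, TPR1 to TPR4, had log2 differences of 0.50 to 1.05 without passing, and all 5 rose after median-of-ratios scaling, where 31.0% of all tested genes did. Among 5 activating ARFs, ARF5 (AT1G19850, MP) had 94.8, 213 and 126 TPM at day 7, against 21.2, 32.1 and 28.9 TPM at day 0, without overlap (log2 difference 2.30 ± 0.43, SE, limma adjusted p = 1.19e-06). ARF8 (AT5G37020) rose 2.34-fold (limma adjusted p = 0.0383), and ARF6, ARF7 and ARF19 did not pass, with log2 differences of 0.20 to 0.51. The calls of TPL and ARF8 were lost without day 7 replicate 3, day 0 replicate 1 or day 0 replicate 3, and that of ARF8 also without day 7 replicate 2. The precursors of miR393, which targets TIR1/AFB transcripts, were listed for the pathway but had no row in the table used here.

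**Figure D5:**
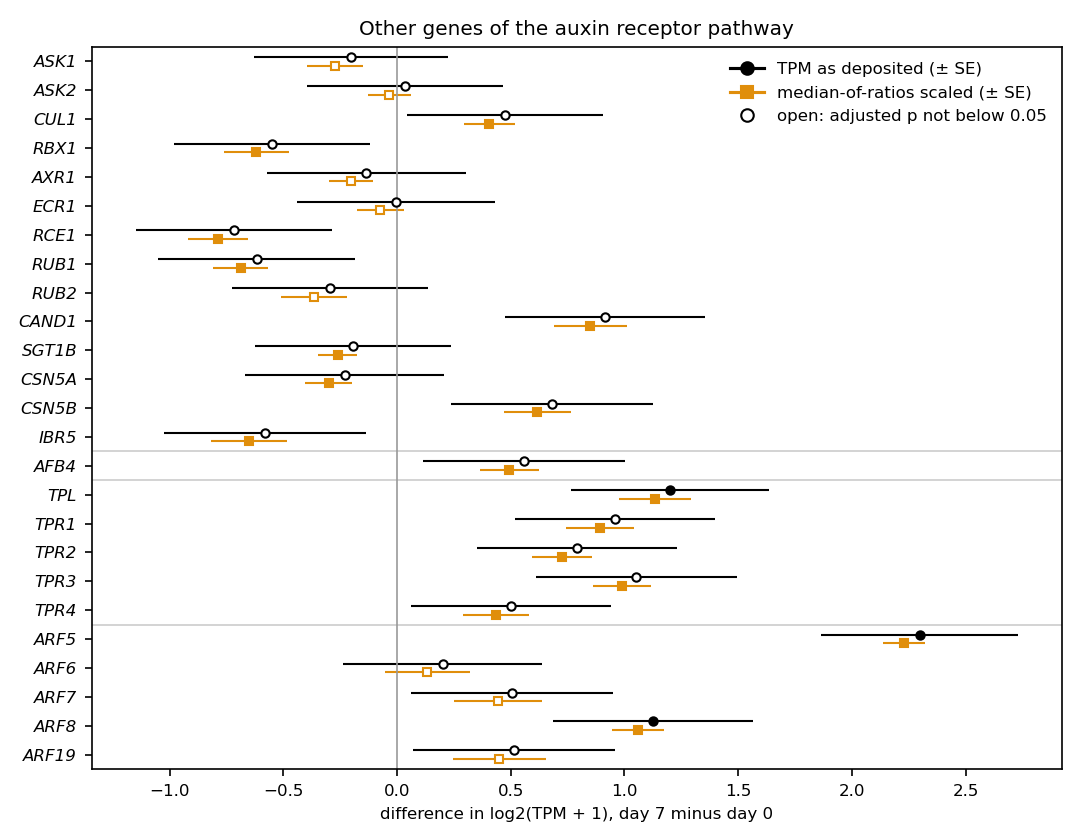
Differences in log2(TPM + 1), day 7 minus day 0, for 25 other pathway genes, with grey lines between SCF subunits and regulators, AFB4, co-repressors and activating ARFs. Black circles are TPM as deposited and orange squares median-of-ratios scaled values, bars are SE, and filled symbols passed (adjusted p below 0.05). As deposited TPL, ARF5 and ARF8 passed.

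Promoter windows of 250 bases before the RefSeq gene start (TAIR10.1) were searched for TGTCTC and TGTCGG, the letters of known ARF binding elements, on both strands, and no matches overlapped in the members' windows. At least 1 match lay in 13 of 29 Aux/IAA windows (44.8%), 1 of 5 receptor windows (20.0%) and 14.7% of the windows of 27438 protein-coding genes. Among the Aux/IAA genes, matches were present for 4 of the 10 that fell, 2 of the 3 that rose, 5 of the 12 that did not pass and 2 of the 4 not tested, so matches stood before genes of either direction. IAA19 had the most TGTCTC matches (3), and IAA5 had 1 TGTCTC and 2 TGTCGG matches. The windows of IAA5, IAA6 and IAA19, which fell, and of IAA20, which rose, are shown on the coding strand. Matches on either strand are in capitals.
IAA5, chr1:5366498-5366747, minus strand: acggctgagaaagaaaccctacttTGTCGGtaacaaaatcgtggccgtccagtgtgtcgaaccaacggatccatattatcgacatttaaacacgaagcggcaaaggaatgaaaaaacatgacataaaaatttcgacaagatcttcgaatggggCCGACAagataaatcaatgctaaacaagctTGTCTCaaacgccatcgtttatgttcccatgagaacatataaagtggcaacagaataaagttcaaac
IAA6, chr1:19673653-19673902, minus strand: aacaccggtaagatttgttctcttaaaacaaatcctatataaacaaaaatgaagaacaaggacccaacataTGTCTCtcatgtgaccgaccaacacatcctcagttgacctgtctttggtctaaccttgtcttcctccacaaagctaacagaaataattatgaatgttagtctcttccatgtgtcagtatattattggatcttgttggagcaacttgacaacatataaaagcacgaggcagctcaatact
IAA19, chr3:5263751-5264000, plus strand: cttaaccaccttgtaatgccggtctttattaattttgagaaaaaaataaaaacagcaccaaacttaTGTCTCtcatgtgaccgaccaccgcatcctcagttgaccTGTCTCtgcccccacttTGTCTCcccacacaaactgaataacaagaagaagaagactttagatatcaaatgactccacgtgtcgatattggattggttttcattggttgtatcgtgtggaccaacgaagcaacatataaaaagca
IAA20, chr2:19307464-19307713, plus strand: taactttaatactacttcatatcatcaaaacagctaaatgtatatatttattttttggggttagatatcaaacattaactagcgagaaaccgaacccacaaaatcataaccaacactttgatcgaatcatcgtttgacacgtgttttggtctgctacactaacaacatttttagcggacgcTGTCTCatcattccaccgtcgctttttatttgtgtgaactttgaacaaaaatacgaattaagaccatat
The longest run common to the IAA6 and IAA19 windows was 23 bases, taTGTCTCtcatgtgaccgacca, so these relatives shared the flanks of a TGTCTC match. The longest run common to the windows of IAA20 and IAA30, which rose, was 18 bases and also held a TGTCTC match. No other pairs of windows were compared. A match describes these letters and is not a measured binding site.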

How the data were processed

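Per the submitters' processing notes, STAR 2.7.10a, RSEM 1.3.1 and the build TAIR10 were used by the authors. The role of each, the annotation version and the strand setting are not given in the sources used here. The authors deposited TPM values for 31276 genes by AGI code in 6 library columns, all used (0 left out), and the listed genes summed to 793808 to 922411 TPM per library. The 18608 genes that reached 1 TPM in 3 or more libraries were compared between day 7 and day 0 with the limma-trend method of limma 3.58.1 under R 4.3.3. The test used log2 of TPM plus a pseudocount of 1 on the deposited scale, and p-values were adjusted by the Benjamini-Hochberg method over every tested gene. The prior degrees of freedom of that fit were infinite, so each SE follows the average trend and p-values rank genes more than they reflect a gene's own spread. Folds are ratios of mean TPM. How reads common to related members were counted is not stated. Sums, shares and ratios were computed per library and not tested. RefSeq sequences (TAIR10.1) were read by locus tag with their own annotation, and the deposited table holds no coordinates. The test was tried on simulated data in which every gene had the same spread. On the deposited scale 0 of 50 genes changed 2-fold passed, and 50 of 50 changed 4-fold did. With median-of-ratios scaling 24 of 50 changed 1.5-fold and 50 of 50 changed 2-fold passed. Not passing as deposited therefore does not show that a gene was unchanged. The members and lists were chosen with earlier results of these data known. All 34 members are named, and of each pathway list the genes that passed or, with none, the 2 with the highest mean TPM. Other list genes were named for their counts after their values were seen. Alternatives were other scalings, a pseudocount of 0.1, other filters on low values, a replicate block and leaving out libraries. Python 3.11.15 with pandas 2.3.3, numpy 2.4.6 and matplotlib 3.10.9 served for tables and plots.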

Additional observations from a re-analysis of the deposited data

How the results depend on the processing

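As deposited 5512 of the 18608 tested genes passed, against 12072 with median-of-ratios scaling, 11755 with quantile normalization, 13135 on the nuclear protein-coding scale, 12927 without the 50 most abundant genes and 3008 with no filter. The part of the calls that were higher was 45.3% as deposited, 47.8%, 55.1%, 70.3% and 68.2% in those 4 scalings. The Aux/IAA genes that rose, 3 as deposited, were 6 on the nuclear protein-coding scale and without the 50 most abundant genes, and 1 with no filter, and those that fell, 10 as deposited, were 18 with median-of-ratios scaling. The receptors that rose, 0 as deposited, were 3 with median-of-ratios scaling, quantile normalization and without the 50 most abundant genes, and 5 on the nuclear protein-coding scale. The pathway genes that rose, 3 as deposited, were 11, 13, 16 and 16 in the 4 scalings and 1 with no filter, and those that fell, 0 as deposited, were 6, 3, 0 and 1 in the 4 scalings. Values that turned and passed on another scale were AFB2 at 0.37, AFB5 at 0.35 and ECR1 at 0.39 on the nuclear protein-coding scale, ECR1 at 0.34 without the 50 most abundant genes and ASK1 at 0.34 with quantile normalization. The cause of these shifts was not tested. Leaving out each library in turn gave 3560 to 7219 calls over all genes, 10 to 16 Aux/IAA genes that fell, 0 to 1 receptors that rose, 1 to 7 pathway genes that rose and 0 to 4 that fell. In the same way the receptor to Aux/IAA ratio was 3.308 to 3.557 times higher at day 7, and the share without degron codons 6.099 to 8.181 times higher. Without both libraries numbered 2, a choice made after seeing the data, 6 pathway genes rose. IAA1, IAA3, IAA5, IAA6, IAA7, IAA14, IAA19 and IAA33 passed in all 16 alternatives. Depth is unknown, so it cannot be said how far counting error limits the low genes.

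With the replicate number as a block, 13 Aux/IAA genes fell and 3 rose, 1 receptor rose, 12 pathway genes rose and 3 fell, and 10119 genes passed in all. With the replicate block and median-of-ratios scaling together, 17 Aux/IAA genes fell, 2 receptors rose, 12 pathway genes rose and 6 fell, and 11984 genes passed. Deviations from the group means of same-numbered libraries correlated at 0.0970, 0.156 and 0.0316 for replicates 1, 2 and 3, and day 7 replicate 3 correlated best with day 0 replicate 1 (0.124), so the numbers were not taken to pair the libraries.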
